A study of Mus musculus with 18 samples.

Results

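The nuclear genes for subunits of the mitochondrial respiratory chain were followed across 18 Illumina mouse BeadChip arrays. A probe was counted as a member by its gene symbol: Ndufa, Ndufb, Ndufc, Ndufs or Ndufv followed by a number for complex I, Sdha to Sdhd for complex II, and symbols starting with Uqcr for complex III, Cox4 to Cox8 for complex IV or Atp5 for complex V. The pseudogene Ndufs5-ps was left out. The rule found 117 of the 45281 probes, for 77 of the 19057 named genes: 34 of complex I, 4 of complex II, 7 of complex III, 16 of complex IV and 16 of complex V. Of these, 104 probes and 71 genes were detected on at least 3 arrays and were tested (33, 4, 7, 11 and 16 genes of complexes I to V). The other 6 genes were Ndufs1 of complex I and Cox4i2, Cox6b2, Cox7b2, Cox8b and Cox8c of complex IV, and 68 of the 71 tested genes were detected on all 18 arrays. Genes such as Uqcrb, Cox8a, Atp5g1 and Ndufa4l2 have no probe named here and were not analysed here, nor were the subunits that mitochondrial DNA encodes.

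Complexes I and II feed electrons from NADH and succinate into ubiquinone, complex III passes them to cytochrome c, and complex IV hands them to oxygen. Complexes I, III and IV pump protons while doing so, and complex V, the ATP synthase, makes ATP as the protons flow back. Most subunits are encoded in the nucleus, and in hepatocytes, cells rich in mitochondria, the chain supplies most of the ATP used for the synthesis of glucose, urea and plasma proteins.

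All cells were mouse hepatocytes from C57BL/6N AhR-/- animals, transformed with the SV40 tsA209 mutant virus, so every group lacks its own aryl hydrocarbon receptor (AhR), a transcription factor switched on by ligands such as dioxins. The reconstituted line carried the tetracycline repressor and a HisMyc-tagged mouse AhR from lentiviral vectors, and the AhR-null line carried the repressor alone. Each line was kept for 8 h in suspension in 1.68% methylcellulose after release with trypsin, for 8 h with 10 µM YH439, an AhR ligand, or for 8 h with 0.1% DMSO, with 3 arrays in each of these 6 groups. The medium held 10% serum and 100 nM dexamethasone, and cells were grown at 34 °C under 5% CO2. The arrays are labelled as biological triplicates, but separate cultures are not stated: a p-value here reflects array-to-array spread that may be technical. Trypsin, methylcellulose and loss of attachment cannot be told apart in the suspended groups, for which no DMSO is recorded. YH439 and suspension were each compared with the same 3 DMSO arrays of their line.

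The median bead signal of an array ran from 6.03 to 11.9, and 42% to 44.6% of the probes were detected. A gap in median signal set the 6 dimmest arrays apart, and the other arrays were divided by line, which made 3 sets. Replicate 1 of the reconstituted groups and replicate 3 of the AhR-null groups were the 6 dimmest arrays (6.03 to 7.19), while the other reconstituted arrays lay at 8.78 to 9.87 and the other AhR-null arrays at 10.4 to 11.9. The Ahr probe was detected on 0 of 9 reconstituted and 1 of 9 AhR-null arrays, so it does not check the labels. Of 13 hepatocyte markers on the array, 8, among them Alb, Ttr and Apob, were detected on no array, while 9 of 10 mesenchymal and stellate markers were detected on all 18. Markers of bile duct cells (2 of 4) and macrophages (2 of 4) were in part detected on all 18 arrays, and those of endothelial cells (0 of 4) were not.

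In suspension, subunits of complexes I, II and III fell in both lines, and in every complex at least as many members stayed short of the threshold as were called lower. In complex V, 6.25% of members fell in the reconstituted and 12.5% in the AhR-null line, below or near the shares over all genes given next. Levels are log2 intensities after background correction and quantile normalization, and a gene was called when limma's Benjamini-Hochberg adjusted p over all 11149 genes tested was under 0.05. In the reconstituted line, 23 of 71 members fell and 2 rose in suspension, where 24.1% of all genes tested were called (10.7% higher, 13.4% lower). In the AhR-null line, 21 of 71 members fell and 2 rose, against 22.6% of all genes (10.8% higher, 11.9% lower). The median change over the 71 members was -0.31 in the reconstituted line and -0.30 in the AhR-null line, while over all genes tested it was -0.04 in each. In bulk RNA, fewer cells of a type and less RNA per cell cannot be told apart, and quantile normalization makes each level relative to the other messengers on the array.

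Same-numbered arrays of a line varied together (correlations of their deviations from the group means of 0.17 to 0.86), so the comparison was also made with the replicate number as a block. In this paired fit 48 members fell and 3 rose in the reconstituted line, and 50 fell and 2 rose in the AhR-null line. In that fit 48.6% of all genes were called in the reconstituted line (27.4% lower) and 47.1% in the AhR-null line (26% lower). Counted by pairs, 54 members were lower in all 3 pairs of suspended and DMSO arrays of the reconstituted line and 57 in those of the AhR-null line, where 37.2% and 35.8% of all genes were. Groups did not overlap, with all 3 suspended arrays lower, for 43 members in the reconstituted line and 29 in the AhR-null line, against 26.6% and 17.2% of all genes.

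**Figure D1:**
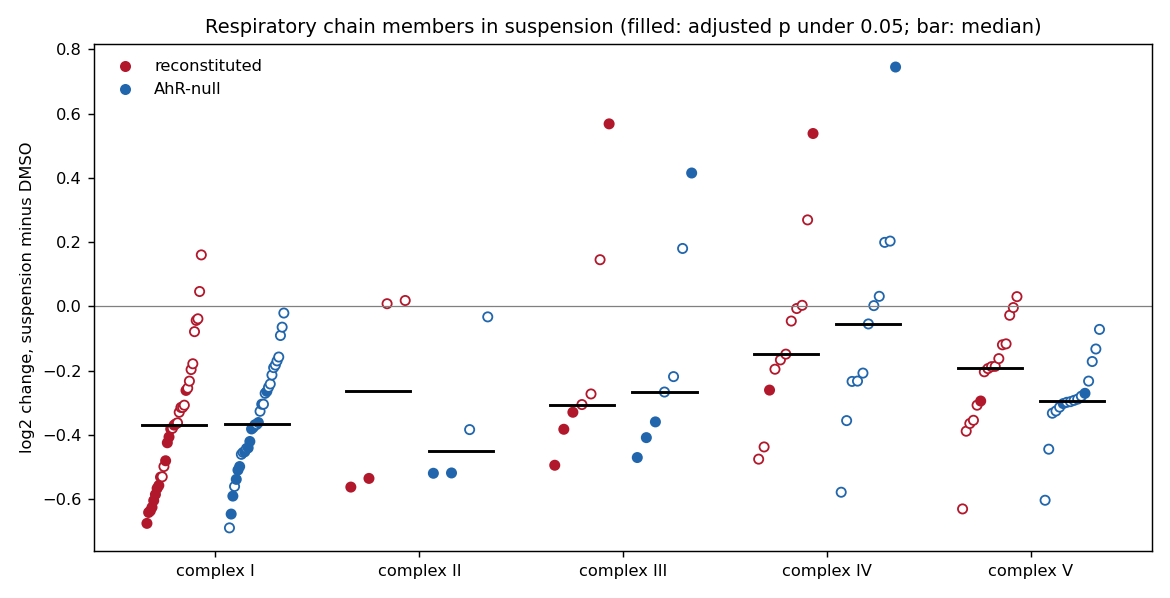
Log2 change (suspension minus DMSO, vertical axis) of each of the 71 tested members by complex, in the reconstituted line (red, left of each pair) and the AhR-null line (blue), filled where the limma adjusted p was under 0.05, with a bar at the median. The medians of complex I lie at -0.37 in both lines and those of complex IV at -0.15 and -0.06, and Uqcrq and Cox6a2 are the filled points above 0.

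The complexes differed in how many members were called. In complex I, 16 of 33 members fell in the reconstituted line and 14 of 33 in the AhR-null line, with none higher (27 in each with the replicate block). In complex II, 2 of 4 fell in each line, and in complex III 3 of 7 fell and 1 rose in each line. In complex IV, 1 of 11 fell and 1 rose in the reconstituted line, and none fell and 1 rose in the AhR-null line. In complex V, 1 of 16 fell in the reconstituted line and 2 of 16 in the AhR-null line. With the replicate block, 10 of 16 members of complex V fell in the reconstituted line and 12 in the AhR-null line, so its low counts rest on the fit without the block. In complex IV, 4 of 11 members fell in each line with the block, where 27.4% of all genes fell in the reconstituted and 26% in the AhR-null line. No test of the difference between complexes was made.

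The arrays themselves were set side by side by complex. For each array, the deviation of every member from its own mean over the 18 arrays was taken and the median over a complex recorded. For complex I it averaged -0.22 ± 0.02 in suspension, 0.16 ± 0.05 with YH439 and 0.154 ± 0.003 in DMSO in the reconstituted line, and -0.26 ± 0.09, 0.09 ± 0.09 and 0.10 ± 0.13 in the AhR-null line in the same order of treatments (SD, n = 3 each). All 3 suspended arrays of either line lay below all YH439 and DMSO arrays of that line. For complex IV the suspended arrays averaged -0.07 ± 0.03 in the reconstituted line, against 0.03 ± 0.08 in DMSO, and -0.04 ± 0.01 in the AhR-null line, against -0.06 ± 0.01 in DMSO. In the AhR-null line this measure of complex IV thus showed no fall, whereas the median of its members' log2 changes was slightly below 0 (-0.055).

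**Figure D2:**
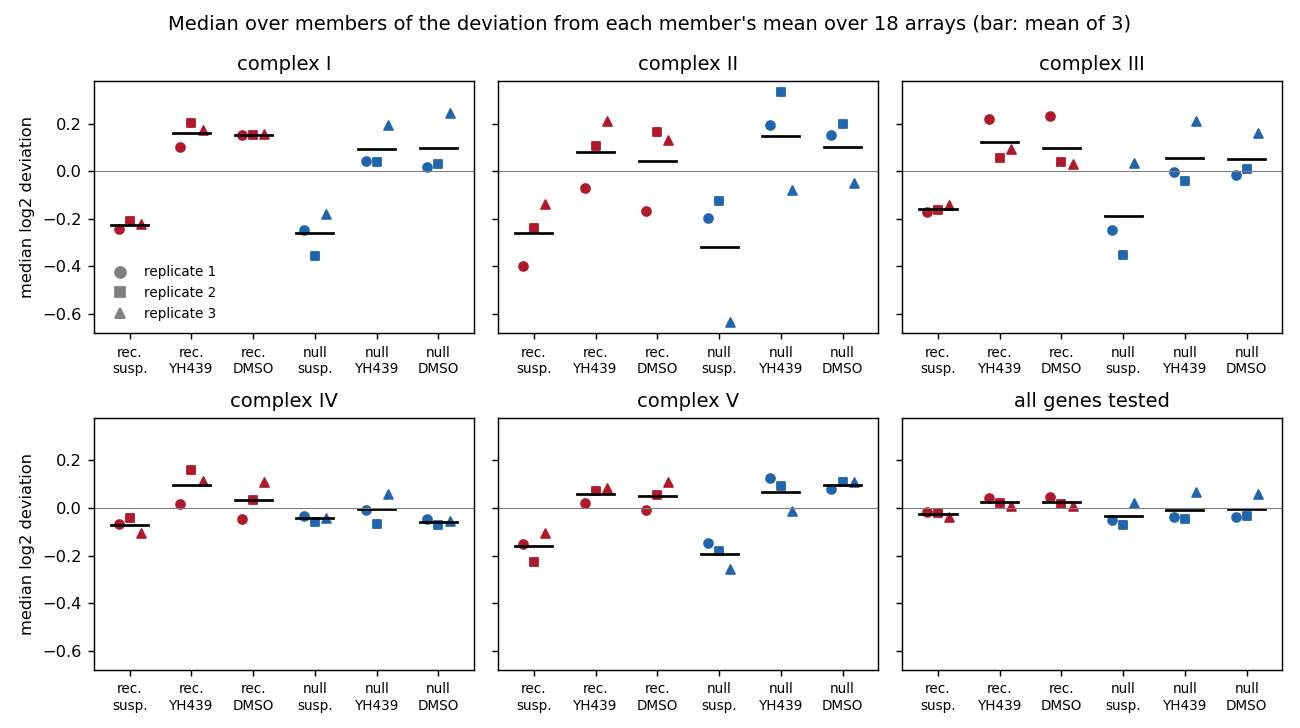
Median over the members of each complex of the log2 deviation from the member's mean over 18 arrays (vertical axis), for each array of the 6 groups, with replicates 1 to 3 as circles, squares and triangles and a bar at the mean of 3. Suspended arrays of complexes I and V lie below the YH439 and DMSO arrays of their line, those of complex IV overlap them in both lines, those of complex II in the reconstituted and of complex III in the AhR-null line overlap them too, and the median over all genes tested stays between -0.07 and 0.07.

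Complex I is an L-shaped enzyme whose hydrophilic arm oxidises NADH and reduces ubiquinone and whose membrane arm pumps protons. Ndufv2, an iron-sulfur subunit of the NADH-oxidising module, read 11.97, 12.05 and 11.86 in reconstituted suspended cells, against 12.62, 12.61 and 12.58 in reconstituted DMSO cells. In AhR-null cells it read 11.88, 11.82 and 12.09 in suspension, against 12.39, 12.39 and 12.78 in DMSO. All suspended arrays lay below all DMSO arrays in both lines, and the fall was -0.64 ± 0.12 in the reconstituted and -0.59 ± 0.12 in the AhR-null line (log2 ± SE, limma adjusted p = 0.00139 and 0.00279).

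Ndufb7, an accessory subunit of the membrane arm, read 8.42, 8.35 and 8.53 in AhR-null suspended cells, against 9.04, 9.03 and 9.17 in AhR-null DMSO cells. This fall of -0.65 ± 0.10 was the largest called fall among the members in the AhR-null line (limma adjusted p = 0.000348), and in the reconstituted line Ndufb7 fell by 0.57 on the log2 scale. In the reconstituted line the largest called fall was that of Ndufa11, an accessory subunit of the membrane arm, which read 10.91, 11.04 and 10.91 in suspension, against 11.62, 11.61 and 11.66 in DMSO (-0.68 ± 0.16, limma adjusted p = 0.00625). In the AhR-null line Ndufa11 gave -0.46 and missed the threshold (limma adjusted p = 0.0543, and 0.000101 with the replicate block).

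Ndufa5, an accessory subunit of the ubiquinone-reducing module, read 11.50, 11.56 and 11.50 in reconstituted suspended cells, against 12.21, 12.14 and 12.11 in reconstituted DMSO cells, and fell by 0.64 on the log2 scale there. Ndufc1, a small subunit of the membrane arm, fell by 0.54 in the AhR-null line, a call lost in 4 of 17 alternatives (highest limma adjusted p = 0.0903). Across complex I, 12 genes fell in both lines: Ndufa5, Ndufa8, Ndufa13, Ndufb3, Ndufb7, Ndufb8, Ndufc1, Ndufs3, Ndufs4, Ndufs7, Ndufs8 and Ndufv2. They include 4 of the 5 tested core subunits, which have relatives in bacterial complex I: Ndufs3, Ndufs7 and Ndufs8 of the ubiquinone-reducing module and Ndufv2. The fifth, Ndufv1, which binds NADH and flavin, gave a log2 difference of -0.08 ± 0.12 in the reconstituted and -0.02 ± 0.12 in the AhR-null line (limma adjusted p = 0.703 and 0.935). Ndufb10, an accessory subunit of the membrane arm, gave -0.50 in the reconstituted and -0.69 in the AhR-null line with a standard error of 0.46 and passed in both with the replicate block (limma adjusted p = 0.0302 and 0.00584). Ndufa4, now counted with complex IV in human mitochondria, gave a log2 difference of -0.31 and -0.21 in the reconstituted and AhR-null lines and passed in neither (limma adjusted p = 0.0528 and 0.186) but in both with the replicate block (0.00759 and 0.0458).

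Complex II, succinate dehydrogenase, also belongs to the citrate cycle. Sdhc, one of its membrane anchors, read 11.23, 11.42 and 11.35 in reconstituted suspended cells, against 11.80, 12.05 and 11.83 in reconstituted DMSO cells, and 11.35, 11.17 and 10.79 in AhR-null suspended cells, against 11.72, 11.72 and 11.43 in AhR-null DMSO cells. The groups did not overlap in either line, and Sdhc fell by 0.56 in the reconstituted and 0.52 in the AhR-null line on the log2 scale (limma adjusted p = 0.0142 and 0.0231). Sdhb, the iron-sulfur subunit, fell by 0.54 in the reconstituted and 0.52 in the AhR-null line (limma adjusted p = 0.0221 and 0.0272). The flavoprotein gene Sdha was detected on none of the suspended and DMSO arrays of either line, so no difference is given. The second anchor, Sdhd, gave 0.02 in the reconstituted and -0.38 in the AhR-null line with a standard error of 0.69, and did not pass. The calls of Sdhb and Sdhc each failed when some single arrays were left out (highest limma adjusted p over the alternatives 0.248 and 0.132).

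Complex III moved in both directions. Uqcrc1, one of its large core proteins, read 10.51, 10.66 and 10.65 in reconstituted suspended cells, against 11.09, 11.16 and 11.06 in reconstituted DMSO cells. In AhR-null cells it read 10.29, 10.20 and 10.43 in suspension, against 10.61, 10.67 and 10.88 in DMSO. No suspended array reached the lowest DMSO array of its line, and Uqcrc1 fell by 0.49 ± 0.10 in the reconstituted and 0.41 ± 0.10 in the AhR-null line on the log2 scale (limma adjusted p = 0.00148 and 0.00613). The small subunits Uqcr11 and Uqcrh fell in both lines, Uqcr11 by 0.38 in the reconstituted and 0.47 in the AhR-null line and Uqcrh by 0.33 in the reconstituted and 0.36 in the AhR-null line. The Uqcrh call was lost in 6 of 17 alternatives in the reconstituted and 4 of 17 in the AhR-null line, mostly on leaving out single arrays (highest limma adjusted p = 0.116 and 0.142).

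Uqcrq, a small subunit that binds ubiquinone, rose in both lines. It read 8.72, 8.69 and 8.70 in reconstituted suspended cells, against 8.18, 8.21 and 8.02 in reconstituted DMSO cells. In AhR-null cells it read 8.33, 8.33 and 8.67 in suspension, against 7.89, 8.01 and 8.19 in DMSO. The rise was 0.57 ± 0.12 in the reconstituted and 0.42 ± 0.12 in the AhR-null line (limma adjusted p = 0.00294 and 0.0217). The call in the AhR-null line was lost in 4 of 17 alternatives, among them leaving out null_DMSO replicate 1, null_DMSO replicate 2 or null_suspension replicate 3 (highest limma adjusted p = 0.154). Uqcrfs1, the Rieske iron-sulfur protein, was detected on 8 of 18 arrays, none of them reconstituted DMSO arrays, and gave a log2 difference of 0.14 in the reconstituted and 0.18 in the AhR-null line, and passed in neither.

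**Figure D3:**
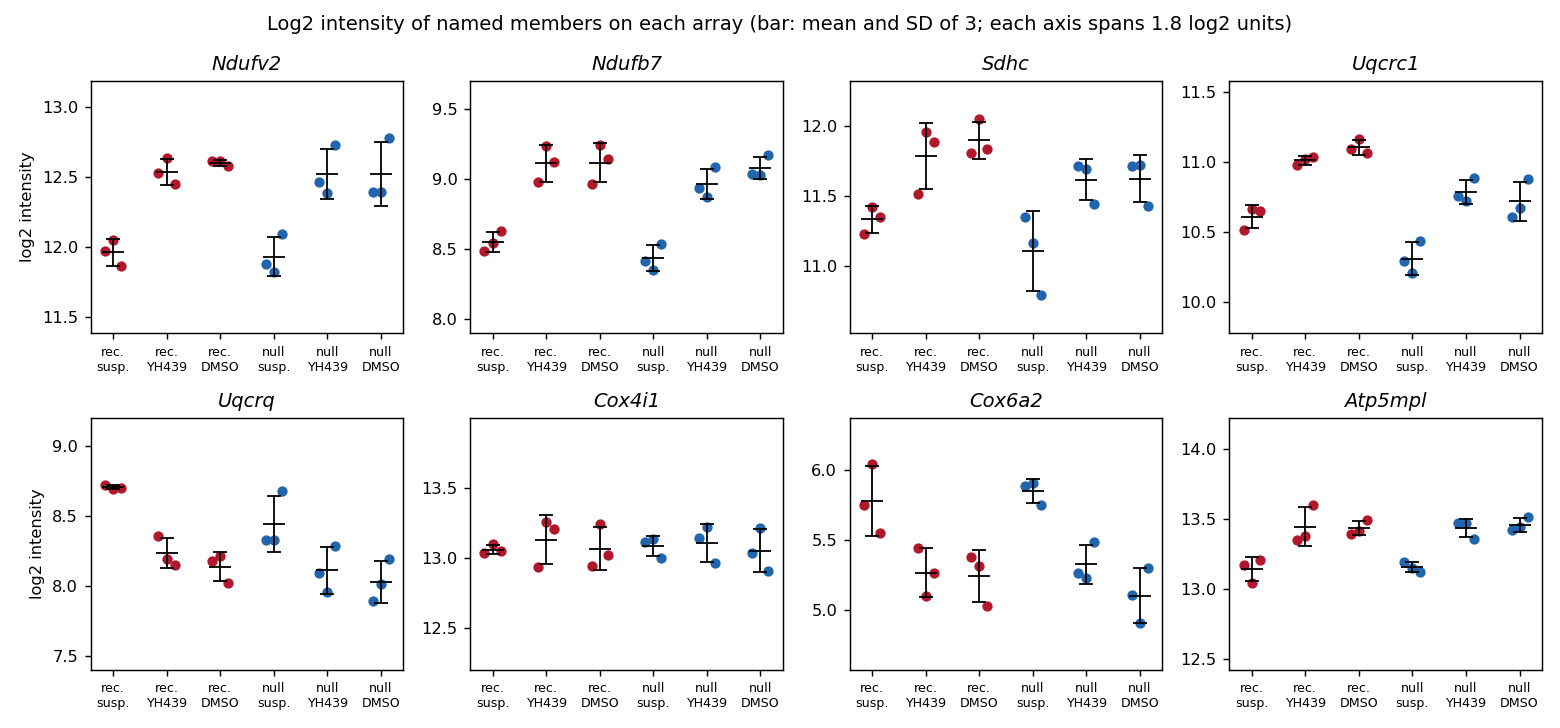
Log2 intensity (vertical axis, each panel spanning 1.8 units) of 8 members on each array of the 6 groups, red for the reconstituted and blue for the AhR-null line, with the mean and SD of 3. Ndufv2, Ndufb7, Sdhc, Uqcrc1 and Atp5mpl are lower on every suspended array than on any DMSO array of the line, Uqcrq and Cox6a2 are higher, and Cox4i1 overlaps.

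Complex IV, cytochrome c oxidase, held the other gene that rose. Cox6a2, the form of subunit 6a known from heart and skeletal muscle, read 5.75, 6.04 and 5.55 in reconstituted suspended cells, against 5.38, 5.31 and 5.03 in reconstituted DMSO cells. In AhR-null cells it read 5.88, 5.91 and 5.75 in suspension, against 5.10, 4.90 and 5.30 in DMSO. The rise was 0.54 ± 0.15 in the reconstituted and 0.75 ± 0.15 in the AhR-null line (limma adjusted p = 0.0139 and 0.00177), at signals near the detection limit: 17 of 18 arrays detected the probe. The call in the reconstituted line was lost with median scaling and without reconstituted_DMSO replicate 3 or reconstituted_suspension replicate 2 (highest limma adjusted p = 0.0786).

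The other members of complex IV gave mixed values. Cox6a1, the form found in most tissues, gave -0.17 in the reconstituted and -0.06 in the AhR-null line, and Cox7a1, a second muscle form, gave -0.20 in the reconstituted and 0.20 in the AhR-null line, all short of the threshold. Cox4i1, the common form of subunit 4, read 13.03, 13.10 and 13.05 in reconstituted suspended cells, against 12.94, 13.24 and 13.02 in reconstituted DMSO cells, and the groups overlapped in both lines (-0.01 ± 0.12 in the reconstituted and 0.03 ± 0.12 in the AhR-null line, limma adjusted p = 0.977 and 0.898). Cox7a2 gave a log2 difference of -0.44 in the reconstituted and -0.58 in the AhR-null line (limma adjusted p = 0.184 and 0.077) and passed in both lines with the replicate block (0.000297 and 4.27e-05). Cox7a2l, which takes part in joining complexes III and IV, gave a log2 difference of 0.27 in the reconstituted and 0.20 in the AhR-null line and passed in the reconstituted line with the replicate block (limma adjusted p = 0.0158), among 3 of 17 alternatives. Cox5a, a subunit on the matrix side, fell by 0.26 in the reconstituted line, a call lost under 10 of 17 alternatives (highest limma adjusted p = 0.16). Cox6b1 gave a log2 difference of -0.48 in the reconstituted and -0.36 in the AhR-null line and passed in both lines with the replicate block (limma adjusted p = 6.48e-05 and 0.000576).

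In complex V, Atp5mpl, a small proteolipid of the membrane part, read 13.17, 13.04 and 13.21 in reconstituted suspended cells, against 13.40, 13.42 and 13.49 in reconstituted DMSO cells. It fell by 0.29 ± 0.09 in the reconstituted and 0.30 ± 0.09 in the AhR-null line (limma adjusted p = 0.0248 and 0.0231). A second, dimmer Atp5mpl probe, ILMN_1258022 (mean 5.48), did not fall. It gave 0.16 in the reconstituted and 0.02 in the AhR-null line (limma adjusted p = 0.661 and 0.973). Atp5o, a protein of the stalk that holds the catalytic head still, fell by 0.27 in the AhR-null line (limma adjusted p = 0.0352) and gave a log2 difference of -0.19 in the reconstituted line, where it passed with the replicate block and not without it (limma adjusted p = 0.0241 and 0.139). The calls of Atp5mpl and Atp5o were lost under several alternatives, among them the removal of single arrays. Atp5g2 and Atp5g3, which encode the same proton-carrying subunit c, gave a log2 difference of -0.12 and -0.20 in the reconstituted and -0.33 and -0.28 in the AhR-null line, none past the threshold. With the replicate block Atp5g3 passed in both lines and Atp5g2 in the AhR-null line (limma adjusted p = 0.0451, 0.0103 and 0.0316). All 16 complex V members were below 0 in the AhR-null line and 15 of 16 in the reconstituted line.

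Most members lay on the same side of 0 in both lines. Of them, 18 fell in both lines, 5 fell in the reconstituted line alone and 3 in the AhR-null line alone, and Uqcrq and Cox6a2 rose in both. Over all genes tested, 9.21% fell in both lines and 8.46% rose in both. Over the 71 members the changes in the reconstituted and AhR-null lines correlated with Pearson's r of 0.84 and Spearman's rho of 0.80, and over all genes tested with 0.89 and 0.83. This is a description across genes of the same arrays, which are not independent replicates, although the lines share no array. The difference between the lines' responses was tested directly: 0 of 71 members passed in limma, against 0.00897% of all genes. An unadjusted p under 0.05 was reached by 0 members, against 295 of all 11149 genes. With the replicate block 0 members passed, against 0.17% of all genes. The differences ran from -0.40 (Cox7a1, with a standard error of 0.28) to 0.42, with standard errors of 0.12 to 1.02, so the test does not show that the lines respond alike. Leaving out null_suspension replicate 2, null_suspension replicate 1 or null_DMSO replicate 3 lowered the AhR-null count of called members to 11, 15 and 14. In the reconstituted line, leaving out any single suspended or DMSO array lowered the count, to 16 without reconstituted_DMSO replicate 2. No share over all genes is given for these counts.

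**Figure D4:**
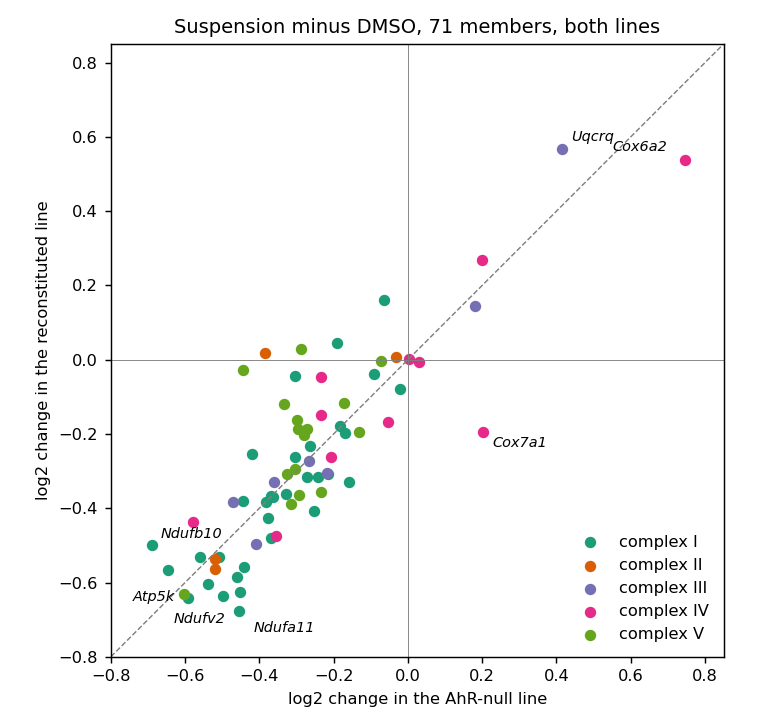
Log2 change in suspension in the AhR-null line (horizontal axis) and the reconstituted line (vertical axis) for 71 members coloured by complex, with a dashed line where both are equal. Of the members, 59 lie below 0 in both lines, and Uqcrq and Cox6a2 stand at the upper right.

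Promoter windows were read for members because nuclear respiratory genes are known to share sites for NRF1, for the ETS factor GABP (also called NRF2) and for YY1, which keep them active in step. RefSeq windows of 250 bases before to 50 after the gene start (GRCm38.p6) were found for 61 of the 71 tested members, 66 windows in all, and for 16 of the 18 that fell in both lines. Both strands were searched. The 10-letter NRF1 core, shown in capitals in the windows of Ndufa5 and Uqcrc1, was present in 25.8% of the member windows, against 4.6% of all 32851 windows. The ETS core CCGGAAG was present in 24.2% against 8.86%, and the YY1 core AAGATGGC in 15.2% against 2.75%. In the 17 windows of the genes that fell in both lines, 4 held the NRF1, 6 the ETS and 4 the YY1 letters.

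The cores of the AhR site, GCGTG, and of the hypoxia-inducible factor site, ACGTG, share the letters CGTG. GCGTG was present in 56.1% of the member windows, against 32.4% of all windows, and ACGTG in 24.2% against 19.6%. Among windows of the genes that fell in both lines, 8 of 17 held GCGTG and 1 of 17 ACGTG. Whether any factor bound these windows was not tested; a match of letters is a description of the sequence and not a bound site.

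Windows of 4 genes that fell in both lines are printed 5′ to 3′ on the strand of the gene, as examples of each core, with the matched letters in capitals. Ndufa5 (chr6:24527477-24527776, minus strand) and Uqcrc1 (chr9:108936398-108936697, plus strand) hold the NRF1 core, Uqcrc1 at 2 places close to its start. Sdhb (chr4:140961021-140961320, plus strand) holds the ETS core, and Ndufs4 (chr13:114388045-114388344, minus strand), an accessory subunit of the NADH-oxidising module whose loss in mice gives a model of Leigh syndrome, holds the YY1 core.
Ndufa5: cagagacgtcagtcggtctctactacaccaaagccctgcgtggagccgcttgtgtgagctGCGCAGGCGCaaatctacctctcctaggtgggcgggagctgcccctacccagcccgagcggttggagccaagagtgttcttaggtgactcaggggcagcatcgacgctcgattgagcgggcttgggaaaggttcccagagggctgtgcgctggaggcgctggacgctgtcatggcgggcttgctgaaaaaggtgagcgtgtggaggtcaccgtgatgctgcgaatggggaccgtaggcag
Uqcrc1: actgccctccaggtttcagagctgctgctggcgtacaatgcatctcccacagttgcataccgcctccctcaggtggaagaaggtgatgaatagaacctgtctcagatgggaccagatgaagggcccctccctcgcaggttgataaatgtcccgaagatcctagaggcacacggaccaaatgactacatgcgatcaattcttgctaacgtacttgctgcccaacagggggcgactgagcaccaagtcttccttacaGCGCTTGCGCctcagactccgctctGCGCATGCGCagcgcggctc
Sdhb: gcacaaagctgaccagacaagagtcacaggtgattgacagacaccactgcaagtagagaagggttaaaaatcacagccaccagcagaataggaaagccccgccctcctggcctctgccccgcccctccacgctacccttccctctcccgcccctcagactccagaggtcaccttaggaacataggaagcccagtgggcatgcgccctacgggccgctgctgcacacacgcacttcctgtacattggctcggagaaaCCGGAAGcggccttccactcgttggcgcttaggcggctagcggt
Ndufs4: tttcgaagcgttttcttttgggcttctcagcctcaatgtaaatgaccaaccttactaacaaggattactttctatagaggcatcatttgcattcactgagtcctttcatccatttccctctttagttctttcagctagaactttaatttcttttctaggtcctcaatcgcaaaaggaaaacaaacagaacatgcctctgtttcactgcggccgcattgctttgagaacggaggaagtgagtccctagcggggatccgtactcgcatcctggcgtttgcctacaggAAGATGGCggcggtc

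Other genes of respiration were read from lists. Over all genes tested, 10.7% rose and 13.4% fell in suspension in the reconstituted line, and 10.8% rose and 11.9% fell in the AhR-null line. Of 10 genes linked to low oxygen, 6 rose in the reconstituted and 7 in the AhR-null line, and Iscu, an iron-sulfur scaffold, fell in the reconstituted line. Pdk1, the kinase that shuts pyruvate dehydrogenase, read 9.64 ± 0.08 in suspension, against 7.87 ± 0.10 in DMSO, in reconstituted cells and 10.01 ± 0.19 against 8.29 ± 0.10 in AhR-null cells (SD, n = 3 each, limma adjusted p = 3.9e-08 and 5.46e-08). Higd1a, a small protein linked to complex IV, rose by 1.79 in the reconstituted and 1.73 in the AhR-null line, and Bnip3l, a receptor for the removal of mitochondria, by 0.64 in the reconstituted and 0.76 in the AhR-null line. Cox4i2, the subunit form known for its induction at low oxygen, was not among the tested genes.

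Of 17 regulators of mitochondrial genes, 5 rose and none fell in each line, where 10.7% and 10.8% of all genes rose in the reconstituted and AhR-null lines. Gabpa, the DNA-binding subunit of GABP, rose by 0.75 in the reconstituted and 0.53 in the AhR-null line, and Ppargc1a, a coactivator of mitochondrial biogenesis, by 0.81 in the reconstituted and 0.64 in the AhR-null line. Mterf1a, a termination factor of mitochondrial transcription, rose by 0.44 in the reconstituted and 0.52 in the AhR-null line.

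Assembly factors and neighbouring enzymes were called lower more than higher. Over all genes tested, 13.4% fell in the reconstituted and 11.9% in the AhR-null line, and these short lists were not tested against those shares. Of 15 genes of complex I assembly and of subunits outside the symbol rule, 4 fell in the reconstituted and 3 in the AhR-null line, among them Dmac1 (-0.72 in the reconstituted, -0.66 in the AhR-null line) and the chaperone Acad9 (-0.34 in the reconstituted, -0.32 in the AhR-null line). Complex II assembly had 1 of 4 genes lower in the reconstituted and 2 in the AhR-null line, with Sdhaf4 in both, and complex III had 1 of 5 in the reconstituted and 2 in the AhR-null line, with Bcs1l, which inserts the Rieske protein, in both. For complex IV assembly 6 of 20 fell and 2 rose in the reconstituted line and 5 fell and 2 rose in the AhR-null line. Higd1a is on this list as well as on that of the genes linked to low oxygen, so its rise is counted in both. Coa3 fell by 0.83 in both lines, Cox17, a copper chaperone, by 0.63 in the reconstituted and 0.62 in the AhR-null line, and Coa7 rose by 0.47 in the reconstituted and 0.45 in the AhR-null line. No gene of the 3 tested for ATP synthase assembly was called. Among 11 electron carrier genes 3 fell in each line: Cycs, the electron transfer flavoprotein subunit Etfb, and Coq7 of ubiquinone synthesis. Cycs, cytochrome c, fell by 0.44 in the reconstituted and 0.52 in the AhR-null line. In the citrate cycle 4 of 16 fell in each line, among them Suclg2 by 0.65 in the reconstituted and 0.67 in the AhR-null line. With the replicate block more genes passed, and of all 11149 genes 2365 rose in the reconstituted and 2352 in the AhR-null line. In the reconstituted line 9 regulators rose, while 9 complex I assembly, 9 complex IV assembly, 8 electron carrier and 10 citrate cycle genes fell and 5 complex IV assembly and 2 citrate cycle genes rose, where 27.4% of all genes were called lower. In the AhR-null line 6 regulators rose, while 12 complex I assembly, 10 complex IV assembly, 5 electron carrier and 9 citrate cycle genes fell and 5 complex IV assembly, 2 citrate cycle and 2 complex I assembly genes rose, where 26% of all genes were called lower.

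YH439 called no member in either line. In the reconstituted line 0 of 71 members passed, against 0.135% of all genes tested, and in the AhR-null line 0 of 71, where no gene passed (0% of all genes). At an unadjusted p under 0.05 limma gave 0 members in either line, while 297 of all genes in the reconstituted line and 185 in the AhR-null line were under it, and 0 members passed with the replicate block, against 0.834% and 0.0179% of all genes. The median change was 0.03 in the reconstituted and 0.00 in the AhR-null line. Of the members, 12 were higher and 11 lower in all 3 pairs in the reconstituted line, and 14 higher and 7 lower in the AhR-null line. No share over all genes is given for these pair counts, so nothing about the members is read from them.

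Members with the smallest p-values in each direction had small differences. In the reconstituted line Ndufb11, of the complex I membrane arm, read 6.55 ± 0.28 with YH439, against 6.20 ± 0.41 in DMSO, and Cox5a 13.31 ± 0.05 against 13.41 ± 0.09 (SD, n = 3 each, limma adjusted p = 1 for both). Sdha had a smaller p there but was kept only through 3 YH439 arrays, 1 of them reconstituted and 2 AhR-null, so its difference is not given. In the AhR-null line Atp5pb, a stalk subunit, read 11.59 ± 0.23 with YH439, against 11.78 ± 0.06 in DMSO, and Cox6a2 5.32 ± 0.14 against 5.10 ± 0.20 (limma adjusted p = 1 for both). The difference between the lines' responses to YH439 passed for 0 members, against 0.0269% of all genes, and for 0 with the replicate block, against 0.161%. It was largest for Ndufb11 (0.61 ± 0.43), and there rested on AhR-null YH439 replicate 3: the AhR-null pairs differed by 0.364, 0.001 and -1.16, and over the alternatives the value ran from 0.084 to 0.892.

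With DMSO alone, no member differed between the lines: 0 of 71 passed, against 0.547% of all genes. At an unadjusted p under 0.05 limma gave 4 of 71 members, against 1060 of all 11149 genes. The nearest was Uqcrc1, which averaged 11.10 ± 0.05 in reconstituted and 10.72 ± 0.14 in AhR-null cells (0.39 ± 0.10, limma adjusted p = 0.113). Several members had large differences that came with a large spread. Atp5md, a small subunit of the ATP synthase, averaged 8.69 ± 0.51 in reconstituted and 9.84 ± 1.20 in AhR-null cells, and Ndufb4, of the complex I membrane arm, 8.57 ± 0.36 and 9.68 ± 1.08 (limma adjusted p = 0.61 and 0.596).

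This spread lay between AhR-null replicates 1 and 2 on one side and replicate 3 on the other. Atp5md read 10.50, 10.55 and 8.45 in AhR-null DMSO replicates 1 to 3, against 8.27, 8.54 and 9.25 in reconstituted DMSO cells. Replicate 3 was thus the one within the range of the reconstituted arrays for this gene. On 17 of 104 member probes, AhR-null replicates 1 and 2 were higher than replicate 3 by at least 1 log2 unit on average over the treatments, which is 16.3%, against 5.88% of all 18673 kept probes with 1 gene. For Atp5md the gap was 2.24, for Sdhd 2.14 and for Ndufb4 2.00, and it was present in suspension, YH439 and DMSO (at least 2.07, 1.77 and 1.86). No member probe had such a gap among the reconstituted replicates, where only 2 of all 18673 kept probes with 1 gene had one. None differed by 1 unit between the lines within the 6 dimmest arrays, where 43 of those 18673 probes did. Without those arrays, 25 of 71 members differed between the lines (14 higher and 11 lower), as did 2712 of all genes tested, where each line lies in a set of arrays of its own and line and set cannot be told apart. With the array set as a block, 0 members passed. That fit compares the lines only through the 6 dimmest arrays, 1 per line and treatment. It therefore cannot show whether line or set gave the differences among the other arrays.

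For several of these genes another probe lacked the gap. Ndufa5 has 2 kept probes. One of them, ILMN_2691460, read 10.93, 11.04 and 9.45 in AhR-null DMSO replicates 1 to 3, while ILMN_1216007, the probe that stands for the gene, read 11.68, 11.70 and 12.20. Likewise, the gap was 1.82 for one probe of Ndufc2 and -0.35 for the other, and for Atp5pb it was 1.79 for one probe and between -0.35 and 0.22 for the other 3. In suspension both Ndufa5 probes were lower by like amounts in the AhR-null line (-0.50 and -0.51). The second missed the threshold, with a standard error of 0.51 (limma adjusted p = 0.565), and passed with the replicate block (0.000279). Of the 33 kept member probes that do not stand for their gene, 6 fell in the reconstituted and 4 in the AhR-null line, against 11.1% and 9.98% of all kept probes. One such probe, ILMN_2688822 of Ndufv3, rose by 0.54 in the reconstituted line (limma adjusted p = 0.0202), where the probe that stands for Ndufv3 gave -0.33.

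**Figure D5:**
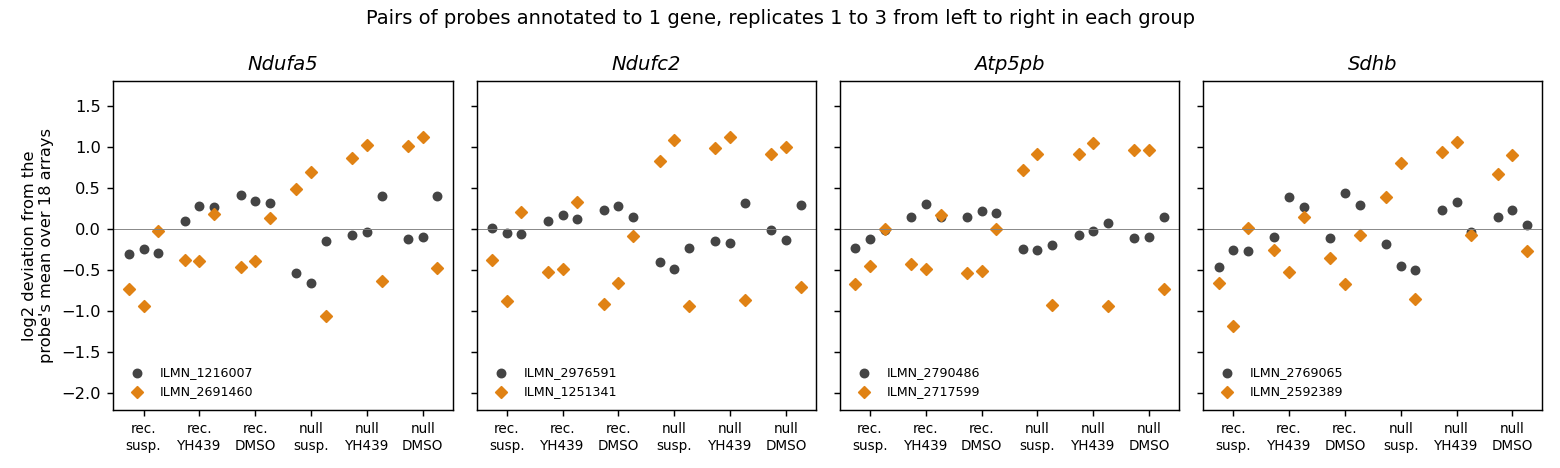
Log2 deviation of 2 probes of 1 gene from each probe's mean over 18 arrays (vertical axis) in the 6 groups, replicates 1 to 3 from left to right, for 4 genes chosen after their values were seen. The orange probes are high on AhR-null replicates 1 and 2 and low on replicate 3 in all treatments, and the grey probes lack that step.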

How the data were processed

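The deposited table gives each probe's bead intensity per array, not normalized, and a deposited detection p-value beside it. It came from BeadStudio (version not given in the sources used here), per the submitters' processing notes. The authors' deposited series matrix holds processed intensity (floor 20, with rank correlation to its own array of at least 0.9989 above the floor, scaling unknown), used as an alternative.

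In limma 3.58.1 (R 4.3.3), neqc corrected background with controls inferred from detection p-values, added an offset of 16, quantile-normalized and took log2. Probes detected (p under 0.05) on at least 3 of 18 arrays were kept, and the brightest on average stood for its gene. One model over the 6 groups (12 residual degrees of freedom, 8 with the replicate block) was fitted with lmFit and eBayes, adjusted over 11149 genes, and tested on simulated data. Of 45281 probes, 34885 named 1 gene, 18 several and the rest none. RefSeq identifiers matched 34807 and changed 0 symbols.

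Same-numbered arrays of a line pair by correlation (0.17 to 0.86), across lines they do not. The members and gene lists were chosen with earlier results of these data known. Named genes were the 3 largest called rises and falls per complex, the smallest p-values where none was called, and isoform pairs. Ndufv1, Ndufa11 in the AhR-null line, Cox6b1, Ndufb10, the second Ndufv3 probe, Atp5md, Ndufb4 and the probe examples were added after their values were seen. The number of arrays limits precision.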

Additional observations from a re-analysis of the deposited data

How the results depend on the processing

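Over the alternatives, 237 values of the counts of members and their medians stayed close to the value reported and 19 moved. A median was taken as close when it shifted by less than 0.053, the pooled SD between arrays of a group. The 237 include counts that stayed at 0, as for YH439 and both differences between the lines' responses, so the tally says little about the suspension counts. No called value changed sign, but medians near 0 did under some alternatives: those of YH439 in both lines, of both differences between the lines' responses (-0.026 to 0.024 for suspension on leaving out 1 array) and of the lines under DMSO. With the replicate block the suspension counts rose to 51 in the reconstituted and 52 in the AhR-null line, where the paired fit removes the shared spread of same-numbered arrays. The share of all genes called rose too, from 24.1% to 48.6% in the reconstituted and from 22.6% to 47.1% in the AhR-null line. No share over all genes is given for the member counts in suspension that follow, so their shifts are not read as particular to the members. With the array set as a block (chosen after seeing the data) the suspension counts were 50 in each line, and without the 6 dimmest arrays 45 in the reconstituted and 40 in the AhR-null line. Within the brighter AhR-null arrays alone 39 members passed, and within the brighter reconstituted arrays 35. With only the groups compared, 2 members passed in the AhR-null line and 33 in the reconstituted line, and the cause was not tested. Leaving out 1 array gave 16 to 19 members in the reconstituted and 11 to 25 in the AhR-null line, with medians of -0.31 to -0.29 and -0.33 to -0.28. The median in suspension was -0.370 in the reconstituted and -0.363 in the AhR-null line with median scaling, and -0.152 and -0.219 in these lines with the authors' processed values, and the cause was not tested. With the authors' values the split of all genes in reconstituted suspension was 1686 higher and 1282 lower, against 1194 and 1495. Under DMSO, 1 member differed between the lines with the authors' values, and 25 members when the 6 dimmest arrays were dropped, and the median difference was -0.022 with the set as a block, against 0.052. Across the lines same-numbered arrays did not pair (-0.49 to 0.10), and the block changed no other call: YH439 and both differences between lines gave 0 members under every alternative run. Of single members in single comparisons, calls were lost 72 times, gained 49 times and moved without a call 260 times. Signal over background limits Sdha, Uqcrfs1 and Cox6a2, which were not detected on all arrays.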

Other observations

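Cyp1b1, an AhR target that is no respiratory gene, read 12.08, 11.99 and 12.33 in reconstituted suspended cells, 12.61, 12.79 and 12.87 with YH439 and 11.56, 11.73 and 11.87 in DMSO, so the YH439 and DMSO groups did not overlap, though the change of 1.04 did not pass (limma adjusted p = 0.391). In AhR-null cells it read 10.80, 10.65 and 9.75 in suspension, against 11.79, 11.63 and 11.08 in DMSO, and fell by 1.10 (limma adjusted p = 0.00759).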
